A study of Mus musculus with 8 samples.

Results

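The 10 genes described here belong to the IL-6 and IL-1 cytokine systems, and were measured in primary smooth muscle cells of mouse blood vessels, which give the vessel wall its tone. They are the ligands Il6, Lif, Il11 and Il33, the receptor chains Il6st, Osmr, Il1r1 and Il1rl1, the transcription factor gene Stat3 and its feedback inhibitor Socs3. The members were given by name, and 10 of 10 were found by symbol among the 27249 genes measured. The cells were primary cultures whose polyadenylated RNA was sequenced in 8 libraries, in 4 groups of 2. The groups were THOC5-overexpressing cells in osteogenic medium, GFP-overexpressing cells in osteogenic medium, THOC5-overexpressing cells in growth medium, and GFP-overexpressing cells in growth medium. All 4 groups thus carried an overexpressed gene, and the labels give the GFP cells the genotype WT. THOC5 is a subunit of the THO complex, which couples transcription to mRNA export, and GFP, green fluorescent protein, served as its control. Osteogenic medium was inorganic phosphate for 6 days according to the series design, a treatment used to move smooth muscle cells toward a bone-like state.

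IL-6 family cytokines signal through receptor complexes that share the chain gp130, the product of Il6st. gp130 pairs with a chain specific to the ligand, such as the oncostatin M receptor (Osmr), the LIF receptor (Lifr) or the IL-6 receptor alpha chain (Il6ra), and passes the signal through JAK kinases to STAT3. STAT3 induces Socs3, whose product binds gp130 and its JAK kinases and damps the signal. IL-1 acts through IL1R1, and IL-33 through ST2, the product of Il1rl1; both receptors take the accessory chain IL1RAP and lead through MyD88 and IRAK kinases to NF-kB, which induces Il6 in many mesenchymal cells.

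The values are normalized read counts, that is, reads divided by 1 size factor per library. Libraries held 7058681 to 10581042 reads, and 3 reads, the limit that a count of 0 allows, corresponded to 2.59 to 3.99 normalized counts. Thoc5 had 1780 and 1937 normalized counts in THOC5 osteogenic libraries, against 650 and 615 in GFP osteogenic libraries, and 2155 and 1406 in THOC5 growth libraries, against 458 and 471 in GFP growth libraries, so every library matched its overexpression label. All 8 smooth muscle markers examined had reads (Acta2, Myh11, Tagln, Cnn1, Des, Smtn, Lmod1 and Myocd), and of 7 macrophage markers Ptprc, Adgre1, Itgam and Mrc1 averaged under 5 normalized counts, while Cd68, Lyz2 and Csf1r had reads in every library. The GFP osteogenic libraries scored 60.7 and 46.9 on the leading principal component (67.2% of variance), and the other 6 scored -13.6 to -26.1. The labels do not say whether replicates were separate cultures, so the spread between libraries, on which the p-values rest, may be technical.

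Promoters are shown for 4 genes that contrast in the results: Il6, which passed no test, Lif, which was highest in GFP osteogenic cells, and Socs3 and Il6st, which were lowest there. Each is the 250 bases before the RefSeq start on GRCm38.p6, read in the direction of the gene, with motif matches in capitals. The motifs searched on both strands were STAT (TTCNNNGAA), NF-kB (GGGA, any base, TTTCC), AP-1 (TGANTCA) and C/EBP (TTGCNNAA). They occurred in 7.02% (STAT), 0.356% (NF-kB), 6.75% (AP-1) and 9.56% (C/EBP) of 32851 windows of the same length.
Il6 (chr5:30012864-30013113, plus strand): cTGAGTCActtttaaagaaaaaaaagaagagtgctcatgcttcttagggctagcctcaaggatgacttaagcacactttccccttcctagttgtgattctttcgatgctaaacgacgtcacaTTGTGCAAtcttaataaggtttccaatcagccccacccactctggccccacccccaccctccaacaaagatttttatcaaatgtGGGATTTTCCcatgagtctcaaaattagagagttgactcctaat
Lif (chr11:4257318-4257567, plus strand): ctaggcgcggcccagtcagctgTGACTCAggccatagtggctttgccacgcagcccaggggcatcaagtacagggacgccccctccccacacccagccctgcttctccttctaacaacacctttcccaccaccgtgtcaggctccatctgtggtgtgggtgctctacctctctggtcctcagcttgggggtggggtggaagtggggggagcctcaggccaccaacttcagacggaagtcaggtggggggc
Socs3 (chr11:117969367-117969616, minus strand): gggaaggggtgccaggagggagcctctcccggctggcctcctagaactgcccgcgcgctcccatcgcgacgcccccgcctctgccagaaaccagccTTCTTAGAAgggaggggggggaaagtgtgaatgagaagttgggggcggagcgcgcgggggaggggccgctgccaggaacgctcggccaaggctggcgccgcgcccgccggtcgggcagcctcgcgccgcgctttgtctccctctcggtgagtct
Il6st (chr13:112463820-112464069, plus strand): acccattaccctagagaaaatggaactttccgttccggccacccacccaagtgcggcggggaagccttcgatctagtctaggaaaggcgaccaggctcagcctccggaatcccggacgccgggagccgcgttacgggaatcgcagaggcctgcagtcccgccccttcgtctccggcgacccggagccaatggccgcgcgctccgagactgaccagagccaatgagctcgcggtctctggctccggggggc
The Il6 window holds an AP-1 match 249 to 243 bases before the start, a C/EBP match on the reverse strand 128 to 121 bases before it and an NF-kB match 44 to 35 bases before it. The Lif window holds 1 AP-1 match, 228 to 222 bases before the start. The Socs3 window holds 1 STAT match, 154 to 146 bases before the start. In the Il6st window none of these letters occurred, which says nothing about binding there. Windows were found for all 10 genes, and a match is a description of letters and not evidence of a site.

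In osteogenic medium, 9 of the 10 genes differed between THOC5 and GFP cells, 6 higher and 3 lower in THOC5 cells, where 22.0% of all 22575 tested genes did, 11.3% higher and 10.7% lower (limma, adjusted p under 0.05). In GFP cells, 8 of the 10 changed with osteogenic medium, 2 rising and 6 falling, where 20.8% of all genes did, 10.3% rising and 10.6% falling. In THOC5 cells, 0 of 10 changed with osteogenic medium, where 0.540% of all genes did, 0.532% rising and 0.00886% falling. In growth medium, 0 of 10 differed between THOC5 and GFP cells, where 0.00443% of all genes did, a single gene that was Thoc5 itself. The comparison of THOC5 with GFP cells in osteogenic medium and the medium response of GFP cells share the GFP osteogenic libraries, so the opposite signs of the 2 sets of values are not separate evidence. These are whole-culture libraries, in which fewer cells of a type and less RNA per cell cannot be told apart. Scaling to library totals in place of size factors moved the median of all genes by 0.127 in the GFP response and by -0.163 in THOC5 against GFP in osteogenic medium, and no called gene among the 10 changed sign with it.

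**Figure D1:**
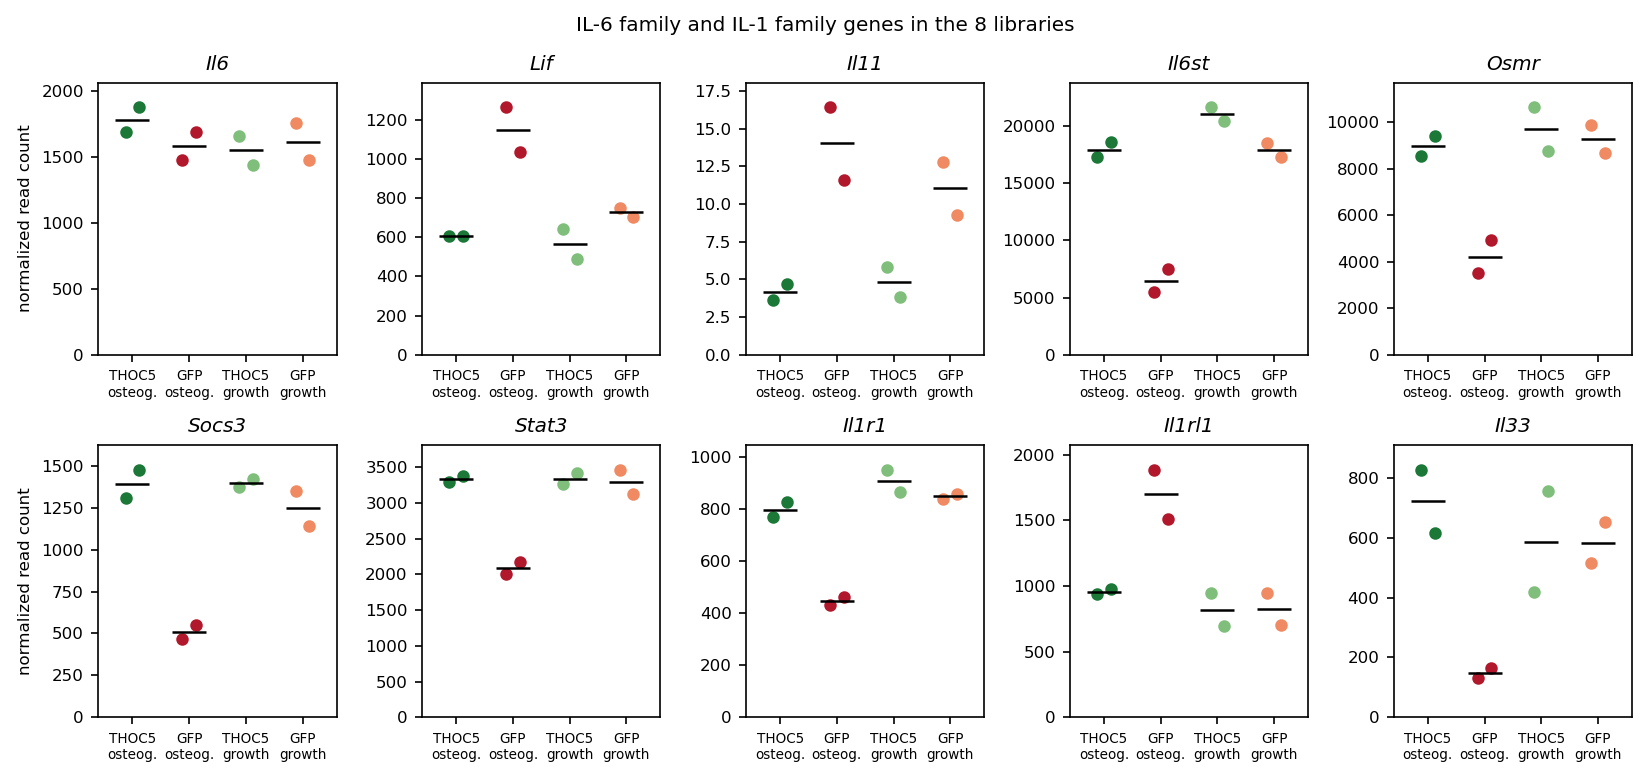
Normalized read count (linear axis from 0) of each of the 10 genes in each library, with replicate 1 left of replicate 2 and a bar at the group mean; groups are THOC5 osteogenic, GFP osteogenic, THOC5 growth and GFP growth, from left to right. For Il6st, Osmr, Socs3, Stat3, Il1r1 and Il33 both GFP osteogenic points lie below the other 6, and for Lif and Il1rl1 both lie above them.

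The plot of counts by library shows 3 shapes. Both GFP osteogenic libraries lay below the other 6 for 6 genes (Il6st, Osmr, Socs3, Stat3, Il1r1 and Il33), as for 18.4% of all tested genes, and above them for 2 (Lif and Il1rl1), as for 18.9%. For Il6 both lay within the range of the others, and for Il11 1 lay within it and 1 above it.

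Among the ligands, Il6 passed the test in no comparison. Il6, which encodes the family's founding cytokine, had 1689 and 1880 normalized counts in THOC5 osteogenic libraries, 1482 and 1689 in GFP osteogenic, 1662 and 1443 in THOC5 growth and 1759 and 1478 in GFP growth libraries. Both THOC5 osteogenic values lie above those of GFP osteogenic and THOC5 growth libraries, by less than 1 normalized count at the nearest in osteogenic medium, and the other 3 groups overlap. The medium response in GFP cells was -0.03 ± 0.11 (log2, SE; limma adjusted p = 0.909), with a 95% interval of -0.28 to 0.22, and THOC5 against GFP in osteogenic medium gave 0.17 ± 0.11 (adjusted p = 0.336). Both estimates turned sign with scaling to library totals, to 0.12 and -0.0045. Per kb of exon Il6 was the most abundant of the 4 ligands in every group, at 735 ± 55.6, 653 ± 60.3, 640 ± 63.9 and 667 ± 81.6 normalized counts per kb in THOC5 osteogenic, GFP osteogenic, THOC5 growth and GFP growth cells (SD, n = 2 each).

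Lif did pass. Lif, whose product leukemia inhibitory factor signals through gp130 and LIFR, had 604 and 606 normalized counts in THOC5 osteogenic libraries, 1264 and 1035 in GFP osteogenic, 643 and 487 in THOC5 growth and 750 and 706 in GFP growth libraries. Both GFP osteogenic libraries were higher than every other library. Lif was lower in THOC5 than in GFP cells in osteogenic medium (-0.92 ± 0.13, limma adjusted p = 0.000571) and rose with osteogenic medium in GFP cells (0.65 ± 0.13, adjusted p = 0.00488). Without GFP osteogenic replicate 1 the medium response was 0.51 and no longer passed (adjusted p = 0.0763). In growth medium THOC5 cells stood at -0.38 ± 0.13 against GFP cells, at an unadjusted p of 0.0153 and an adjusted p of 0.906.

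Il11, the least abundant of the 10, encodes a gp130 cytokine known for its part in fibrosis. It had 3.63 and 4.69 normalized counts in THOC5 osteogenic libraries, on 4 and 5 reads, and 16.4 and 11.6 in GFP osteogenic libraries, on 19 and 13 reads. In growth medium it had 5.79 and 3.82 in THOC5 libraries, on 6 and 4 reads, against 12.8 and 9.31 in GFP libraries, on 11 and 7 reads. In each medium both THOC5 libraries lay below both GFP libraries. The osteogenic difference was -1.53 ± 0.44 (limma adjusted p = 0.0287), and it failed in DESeq2 (adjusted p = 0.110) and when any of the 4 libraries compared was left out: the adjusted p was 0.135 without THOC5 osteogenic replicate 1, 0.0948 without its replicate 2, 0.179 without GFP osteogenic replicate 1 and 0.0572 without its replicate 2. The growth difference was -1.06 ± 0.44 (unadjusted p = 0.0352, adjusted p = 0.906).

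The shared receptor chain moved most among the IL-6 receptor members. Il6st had 17302 and 18579 normalized counts in THOC5 osteogenic libraries, 5455 and 7461 in GFP osteogenic, 21661 and 20447 in THOC5 growth and 18492 and 17314 in GFP growth libraries. The GFP osteogenic libraries are well below all others, and the other 3 groups lie close together. Il6st was 2.81-fold higher in THOC5 than in GFP cells in osteogenic medium (1.49 ± 0.13, limma adjusted p = 2.52e-05) and fell 2.80-fold with osteogenic medium in GFP cells (-1.49 ± 0.13, adjusted p = 2.91e-05).

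Osmr, the chain that pairs with gp130 for oncostatin M, followed. It had 8566 and 9392 normalized counts in THOC5 osteogenic libraries, 3510 and 4915 in GFP osteogenic, 10642 and 8754 in THOC5 growth and 9879 and 8680 in GFP growth libraries. Both GFP osteogenic values are below the lowest of the other 6. It was 2.16-fold higher in THOC5 than in GFP cells in osteogenic medium (1.11 ± 0.15, limma adjusted p = 0.000386) and fell 2.23-fold with osteogenic medium in GFP cells (-1.16 ± 0.15, adjusted p = 0.000331).

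Stat3 and Socs3, the transcription factor and its feedback inhibitor, were both lower in GFP osteogenic cells. Socs3 had 1310 and 1477 normalized counts in THOC5 osteogenic libraries, 465 and 549 in GFP osteogenic, 1377 and 1423 in THOC5 growth and 1352 and 1141 in GFP growth libraries. Stat3 had 3291 and 3384 in THOC5 osteogenic libraries, 2009 and 2176 in GFP osteogenic, 3261 and 3421 in THOC5 growth and 3466 and 3132 in GFP growth libraries. For both genes the GFP osteogenic libraries do not overlap any other. Socs3 was 2.75-fold higher in THOC5 than in GFP cells in osteogenic medium (1.46 ± 0.11, limma adjusted p = 1.06e-05) and fell 2.45-fold in the medium response of GFP cells (-1.29 ± 0.11, adjusted p = 2.29e-05). Stat3 was 1.60-fold higher in THOC5 cells (0.67 ± 0.08, adjusted p = 0.000239) and fell 1.58-fold in GFP cells (-0.66 ± 0.08, adjusted p = 0.000305). Stat3 overlaps Stat5a on the opposite strand, and the kit named in the labels does not mark strand, so reads in the overlap cannot be assigned to either gene.

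The IL-1 side split. Il1r1, the signalling receptor for IL-1, had 767 and 825 normalized counts in THOC5 osteogenic libraries, 432 and 461 in GFP osteogenic, 950 and 863 in THOC5 growth and 839 and 859 in GFP growth libraries. Il1rl1, which encodes the IL-33 receptor ST2, had 936 and 978 in THOC5 osteogenic libraries, 1885 and 1508 in GFP osteogenic, 945 and 695 in THOC5 growth and 945 and 701 in GFP growth libraries. The GFP osteogenic libraries are thus the lowest for Il1r1 and the highest for Il1rl1. The genes are neighbours on chromosome 1, at 40225080 to 40317257 (Il1r1) and 40429570 to 40465415 (Il1rl1) on GRCm38, 112.3 kb apart and on the same strand. Il1r1 was 1.78-fold higher in THOC5 than in GFP cells in osteogenic medium (0.83 ± 0.09, limma adjusted p = 8.53e-05) and fell 1.90-fold with osteogenic medium in GFP cells (-0.93 ± 0.09, adjusted p = 4.53e-05). Il1rl1 was lower in THOC5 cells in osteogenic medium (-0.82 ± 0.17, adjusted p = 0.00481) and rose 2.07-fold in GFP cells (1.05 ± 0.17, adjusted p = 0.00117). The first of these Il1rl1 results did not pass without THOC5 osteogenic replicate 1 (adjusted p = 0.0632), THOC5 osteogenic replicate 2 (0.0598) or GFP osteogenic replicate 1 (0.0796). Il1r1 overlaps the gene model Gm38070 on the same strand. The mast cell markers Cpa3 and Cma1, of a cell type known for ST2, averaged under 5 normalized counts, while Kit had 12.4 to 41.5 in the 8 libraries. Mostly through Kit, the 3 mast cell markers in the table summed to 19.1 to 20.7 in THOC5 osteogenic, 14.3 to 18.2 in GFP osteogenic, 12.4 to 44.4 in THOC5 growth and 18.6 to 25.3 in GFP growth libraries. Their part in the Il1rl1 result was not tested.

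Il33, the nuclear alarmin that binds ST2, had the largest fold changes of the 10. It had 829 and 617 normalized counts in THOC5 osteogenic libraries, 132 and 165 in GFP osteogenic, 419 and 757 in THOC5 growth and 517 and 653 in GFP growth libraries. The GFP osteogenic libraries are far below the rest, while replicates of the other groups differ widely. Il33 was 4.82-fold higher in THOC5 than in GFP cells in osteogenic medium (2.27 ± 0.24, limma adjusted p = 8.14e-05) and fell 3.92-fold with osteogenic medium in GFP cells (-1.97 ± 0.24, adjusted p = 0.000224). Ligand and receptor thus had opposite signs in both comparisons.

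**Figure D2:**
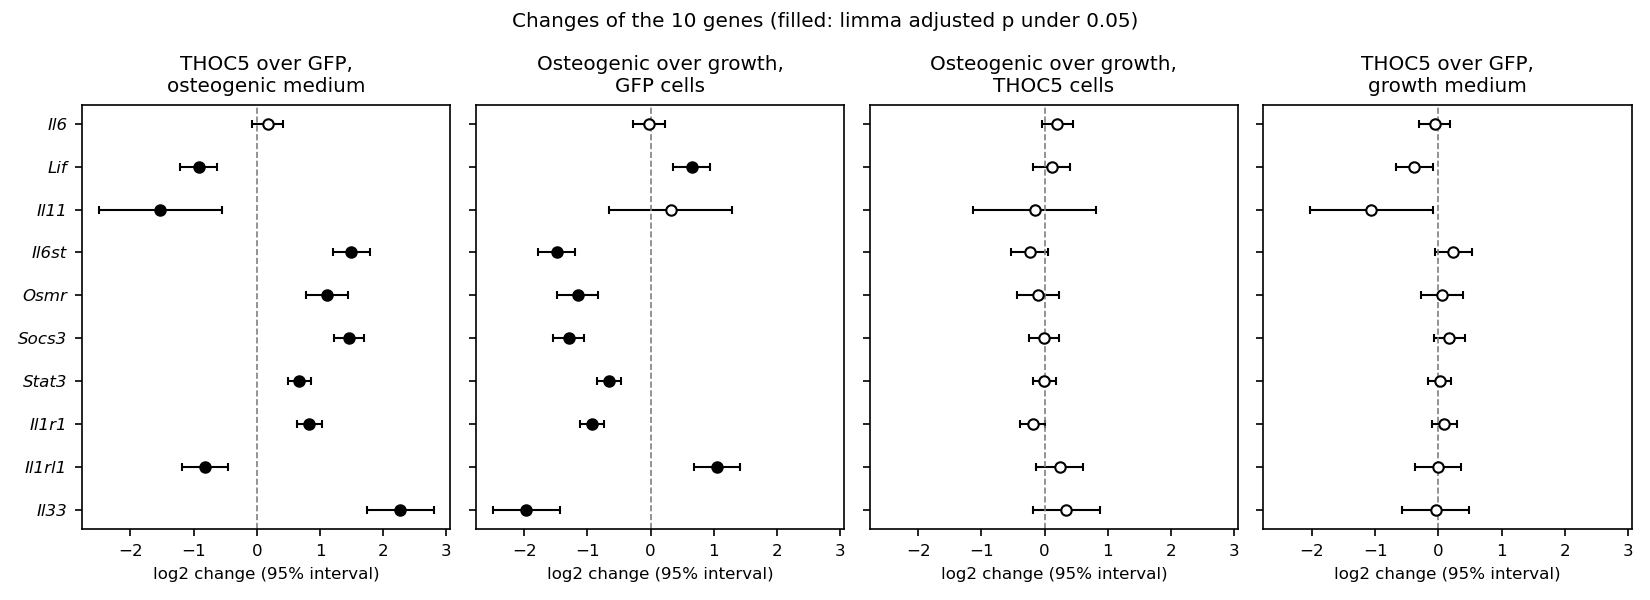
Log2 change of each gene with its 95% interval in 4 comparisons (THOC5 over GFP in osteogenic medium, osteogenic over growth in GFP cells, osteogenic over growth in THOC5 cells, THOC5 over GFP in growth medium); filled points have a limma adjusted p under 0.05. Filled points number 9, 8, 0 and 0 from left to right.

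The plot of log2 changes sets the comparisons side by side. In THOC5 cells the medium responses ran from -0.23 ± 0.13 for Il6st to 0.34 ± 0.24 for Il33. None of the 10 passed limma, 0 had an unadjusted p under 0.05, and edgeR and DESeq2 also called 0. The nearest was Il1r1, at -0.19 ± 0.09 and an unadjusted p of 0.0594. Intervals still allow changes: that of Il33 was -0.19 to 0.87. In growth medium the comparison of THOC5 with GFP cells gave 0 calls in limma, edgeR and DESeq2, with Lif and Il11 at an unadjusted p under 0.05. The median of the 10 was 0.75 for THOC5 against GFP in osteogenic medium and -0.79 for the medium response of GFP cells, beside 0 over all genes in both, -0.0049 for the medium response of THOC5 cells and 0.0072 for THOC5 against GFP in growth medium. In the authors' deposited table, 6 of the 10 were higher and 2 lower in THOC5 than in GFP cells in osteogenic medium. For the medium response of GFP cells the authors' deposited table likewise had 2 higher and 6 lower. Il11 was not called in the authors' deposited table, at an adjusted p of 0.116.

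Whether the medium response itself differed between THOC5 and GFP cells was tested as the interaction. It was past the threshold for 6 of 10, all higher in THOC5 cells, where 9.22% of all genes were called, 5.30% higher and 3.92% lower. The differences were 1.26 ± 0.19 for Il6st (limma adjusted p = 0.00271), 1.05 ± 0.21 for Osmr (0.0119), 1.29 ± 0.16 for Socs3 (0.00107), 0.65 ± 0.12 for Stat3 (0.00750), 0.74 ± 0.13 for Il1r1 (0.00529) and 2.31 ± 0.34 for Il33 (0.00243). Il1rl1 gave -0.81 ± 0.24 (0.0551) and Lif -0.54 ± 0.19 (0.103), which did not pass. Il1rl1 did pass in edgeR (0.0137) and DESeq2 (0.00518), and Lif in edgeR (0.0442). Without THOC5 osteogenic replicate 2 only 2 of the 10 passed, and Il6st (0.0502), Osmr (0.112), Stat3 (0.0765) and Il1r1 (0.0630) did not. Osmr was also lost without THOC5 osteogenic replicate 1 (0.0627). edgeR called 8 and DESeq2 7.

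Receptor levels can be compared per kb of exon. Il6st was the most abundant IL-6 receptor chain in every group, at 1616 ± 81.4 normalized counts per kb in THOC5 osteogenic, 582 ± 128 in GFP osteogenic, 1897 ± 77.4 in THOC5 growth and 1613 ± 75.0 in GFP growth cells (SD, n = 2 each). Osmr followed at 741 ± 48.3, 348 ± 82.0, 801 ± 110 and 766 ± 70.0 in the same order. Lifr stood at 109, 46.9, 113 and 109 per kb and Il6ra, the chain that binds IL-6, at 20.5, 16.4, 21.3 and 25.2. On the IL-1 side, Il1r1 and Il1rl1 were close in THOC5 osteogenic (125 ± 6.46 and 139 ± 4.32), THOC5 growth (142 ± 9.63 and 119 ± 25.6) and GFP growth cells (133 ± 2.19 and 119 ± 25.1), the growth values within their spread. In GFP osteogenic cells they were apart, at 70.2 ± 3.13 and 246 ± 38.6. The shared chain Il1rap stood between 21.6 and 24.7 per kb in all 4 groups.

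**Figure D3:**
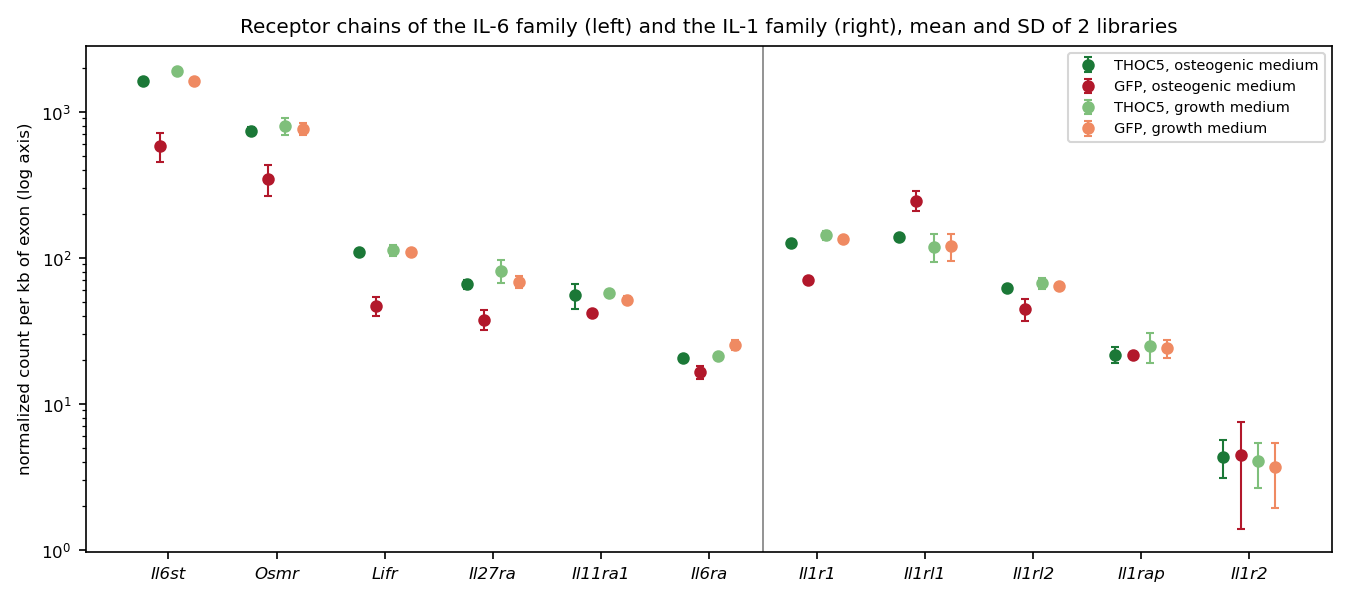
Mean normalized count per kb of exon (log axis) of IL-6 family chains (left) and IL-1 family chains (right), with SD of 2 libraries; colours give the 4 groups. Il6st, Osmr and Lifr are lowest in GFP osteogenic cells, Il1rl1 is highest there, and Il1rap is between 21.6 and 24.7 per kb in every group.

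The plot of receptor chains adds 3 other chains of the IL-6 family that fell in GFP cells with osteogenic medium: Lifr (-1.23 ± 0.11, limma adjusted p = 2.36e-05), the IL-27 receptor chain Il27ra (-0.86 ± 0.16, 0.0025) and Il6ra (-0.62 ± 0.13, 0.00482). So 3 of 5 fell and 0 rose, where 10.6% of all genes fell and 10.3% rose. Over all genes 11.3% were higher in THOC5 than in GFP cells in osteogenic medium. The list median of the GFP response, -0.75, is the value of Cntfr, another of the 5, which did not pass (limma adjusted p = 0.376). Cntfr had 3 to 7 reads a library in GFP cells. For THOC5 against GFP in osteogenic medium 2 of these 5 were higher, Lifr (1.23 ± 0.11, adjusted p = 2.11e-05) and Il27ra (0.80 ± 0.16, 0.00351), and 1 of 5 without THOC5 osteogenic replicate 2.

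Of 19 genes commonly listed as STAT3 targets, 11 fell and 3 rose in GFP cells with osteogenic medium (median -0.78, beside 0 over all genes, of which 10.6% fell and 10.3% rose), and 12 were higher and 1 lower in THOC5 than in GFP cells in osteogenic medium (median 0.88, beside 11.3% higher and 10.7% lower over all genes). The STAT3 target list and the other gene lists were chosen with earlier results of these data known, so such counts are not independent evidence. In THOC5 cells 0 of 19 changed with medium in limma, edgeR and DESeq2, where limma called 0.540% of all genes. Lcn2, a secreted iron-siderophore binder, had 6457 and 8237 normalized counts in THOC5 osteogenic libraries, 1387 and 1734 in GFP osteogenic, 8190 and 8139 in THOC5 growth and 6885 and 6224 in GFP growth libraries. Saa3, an acute-phase apolipoprotein, had 14061 and 16987 in THOC5 osteogenic libraries, 2497 and 3369 in GFP osteogenic, 16557 and 17400 in THOC5 growth and 14794 and 12892 in GFP growth libraries. Both are lowest in GFP osteogenic libraries, without overlap. In GFP cells Lcn2 fell by 2.08 ± 0.13 (log2, SE; limma adjusted p = 3.62e-06) and Saa3 by 2.25 ± 0.14 (adjusted p = 3.97e-06). Cell-cycle gene Ccnd1 went the other way, rising by 0.66 ± 0.09 (adjusted p = 0.000501). The interaction called 11 of 19 higher and 1 lower, beside 5.30% and 3.92% of all genes.

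JAK and STAT genes moved less. In GFP cells 6 of 14 fell, among them Ptpn1 (-0.97 ± 0.10), a tyrosine phosphatase acting on JAK kinases, Stat5a (-0.71 ± 0.10) and Jak2 (-0.52 ± 0.08); 3 of 14 fell without GFP osteogenic replicate 1, without GFP growth replicate 1 and with scaling to library totals. In the same response 1 of 14 rose, and over all genes 10.6% fell and 10.3% rose. In osteogenic medium 6 of 14 were higher in THOC5 than in GFP cells and 0 lower, beside 11.3% and 10.7% of all genes. Without THOC5 osteogenic replicate 2 the count was 3 of 14.

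Genes downstream of the IL-1 receptor moved in both directions. Of 18 transducers, 3 rose and 2 fell in GFP cells (median 0.08), beside 20.8% of all genes called in either direction. In osteogenic medium 4 were higher and 6 lower in THOC5 than in GFP cells (median -0.04), beside 22.0% of all genes. With scaling to library totals the count in GFP cells was 10 of 18, 8 rising and 2 falling. Without GFP osteogenic replicate 1 the count was 3 of 18 in GFP cells and 2 of 18 for THOC5 against GFP cells, and that for THOC5 against GFP cells was 6 without THOC5 osteogenic replicate 1 and 2 without its replicate 2. Of 12 regulators of Il6 mRNA and transcription, a list that includes the overexpressed gene Thoc5, 4 fell and 1 rose in GFP cells, and Thoc5 was not among these 5. Zc3h12a, an endonuclease that degrades Il6 mRNA, had 659 and 743 normalized counts in THOC5 osteogenic libraries, 297 and 307 in GFP osteogenic, 620 and 688 in THOC5 growth and 633 and 690 in GFP growth libraries. Its GFP osteogenic libraries are the lowest. Zc3h12a fell by 1.13 ± 0.10 in GFP cells (limma adjusted p = 2.69e-05), and Nfkbiz, an NF-kB cofactor for Il6, fell by 0.87 ± 0.13. The 1 that rose was Elavl1 (0.59 ± 0.10, limma adjusted p = 0.00149). Over all genes 10.6% fell and 10.3% rose. Without GFP osteogenic replicate 1 the count in GFP cells was 3 of 12, and with scaling to library totals 3 rose and 2 fell. In osteogenic medium 5 of 12 were higher in THOC5 than in GFP cells, Thoc5 itself among them, and 1 was lower. Over all genes 11.3% were higher and 10.7% lower.

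**Figure D4:**
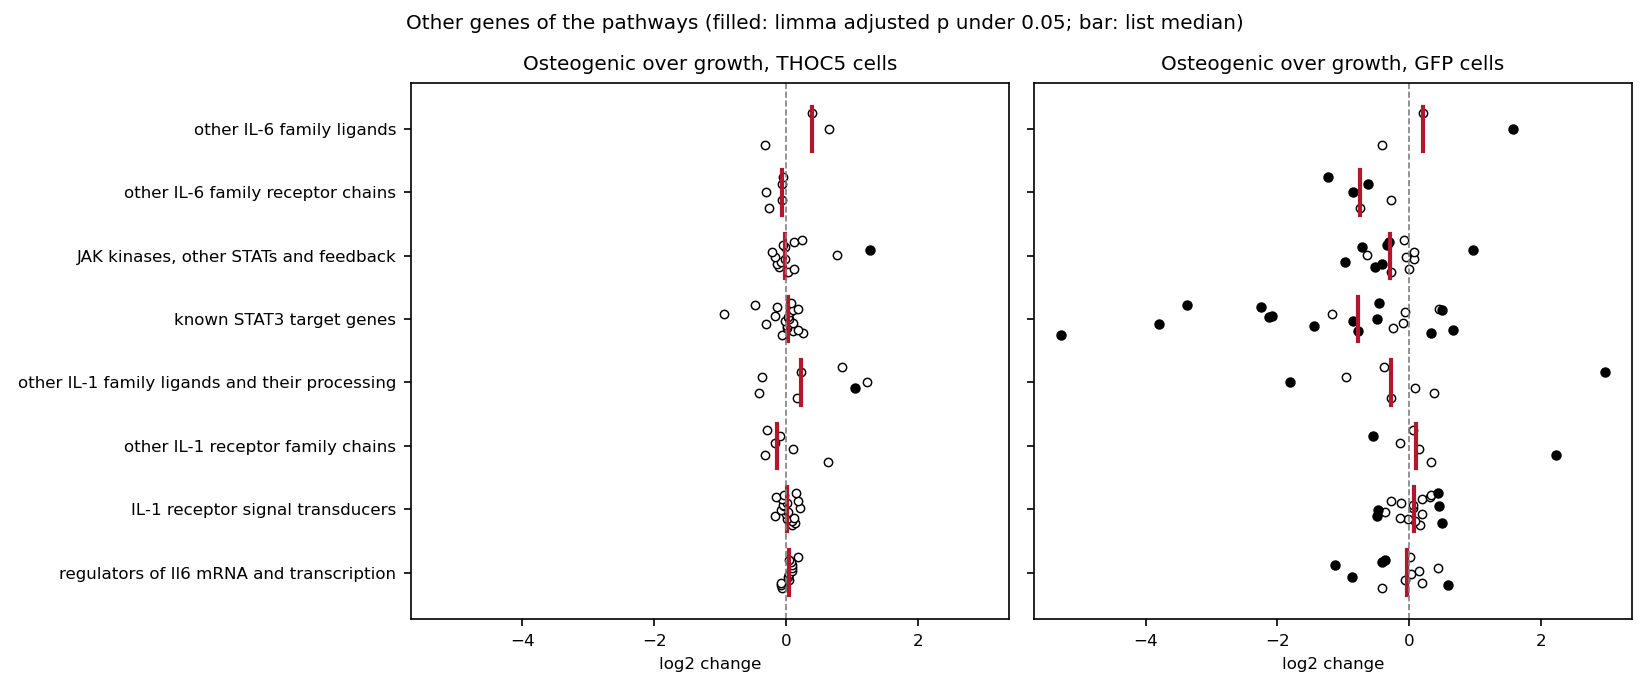
Log2 change with osteogenic medium of each gene of 8 pathway lists, in THOC5 cells (left) and GFP cells (right); filled points have a limma adjusted p under 0.05 and red bars are list medians. In THOC5 cells no gene of the STAT3 target list is filled, where 0.540% of all tested genes passed. In GFP cells that list spreads to -5.28 (A2m).

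The plot of pathway lists shows the 2 medium responses together. Among the remaining lists, the counts in GFP cells were 1 risen and 1 fallen of 7 other IL-1 family ligand and processing genes, and the same of 6 other IL-1 receptor chains, Il18rap rising (2.23 ± 0.46) and Il1rl2 falling (-0.54 ± 0.12). The ligand calls rested on few reads: Il1a had 1 and 1 reads in GFP osteogenic libraries against 4 and 5 in GFP growth libraries, and Nlrp3, an inflammasome sensor, had 36 and 16 against 6 and 0. The ligand list had 0 or 1 call whichever library was left out, and 1 in edgeR and in DESeq2. The receptor list had 0 calls without GFP osteogenic replicate 1.

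Profiles across the 8 libraries were compared by the root-mean-square difference of centred log2 values, over 10361 genes. Among the members the closest pairs were Il6st and Socs3 (0.130), Stat3 and Il1r1 (0.148) and, for the raised genes, Lif and Il1rl1 (0.209). The nearest gene of all was Mrvi1 for Il6st (0.0474), Jph2 for Stat3 (0.0223), Nedd4 for Il1r1 (0.0476), Il16 for Socs3 (0.0597), C1rl for Osmr (0.0628), Sp140 for Il6 (0.0578), Fez1 for Lif (0.0792) and Them6 for Il1rl1 (0.0884). Il33 had no close neighbour, its nearest being Ppp1r3c at 0.193.

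The summed smooth muscle, fibroblast and endothelial markers were lowest in GFP osteogenic libraries, and the summed macrophage markers were not. Acta2 made up most of the smooth muscle sum and Dcn most of the fibroblast sum. Among the endothelial markers Vwf had 12.1 and 9.84 normalized counts in GFP osteogenic libraries, against 99.1 and 58.5 in GFP growth libraries. Kdr went the other way, with 25.1 and 20.6 against 9.32 and 9.31. The macrophage sum held opposite changes in GFP cells with osteogenic medium. Of 5 macrophage markers tested, Lyz2 fell (-0.67 ± 0.12, limma adjusted p = 0.0030) and Cd68 rose (0.56 ± 0.12, adjusted p = 0.0073). The summed smooth muscle markers were 24999 to 26851 normalized counts in THOC5 osteogenic, 11925 to 13801 in GFP osteogenic, 30387 to 31012 in THOC5 growth and 24495 to 28391 in GFP growth libraries. The 8 adventitial fibroblast markers summed to 21709 to 22933, 7021 to 9761, 24111 to 24596 and 19648 to 22205 in the same order, with Pi16 and Dpt averaging under 5. In GFP cells 6 of 8 smooth muscle and 4 of 8 fibroblast markers fell with osteogenic medium and 0 rose, where 10.6% of all genes fell and 10.3% rose. Of the smooth muscle list Des (1.08) and Myocd (0.33) did not pass. Of the fibroblast list Ly6a (0.16), Cd34 (0.03), Pi16 (-1.48) and Dpt (-0.87) did not pass. Dcn, one of the fibroblast markers, was the second nearest profile to Il6st (0.0513). Macrophage markers summed to 391 to 446, 459 to 477, 415 to 455 and 492 to 498, and endothelial markers to 83.5 to 87.2, 36.7 to 55.4, 90.7 to 121 and 75.8 to 117. The part of smooth muscle and fibroblast content in the changes of the 10 genes was not tested.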

How the data were processed

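Gene-level values for 8 libraries were read from the deposited table, and columns were matched to samples through the labels' description field, leaving 0 per-sample columns unused. Each deposited value is a signal: reads per gene scaled by a factor particular to the library. Undoing that factor gave whole reads, to within 1e-06, for 100% of values. Columns with the authors' own log2 ratios and p-values for 4 comparisons sit beside them, per the file headers. The TruSeq kit does not mark strand, per the labels' protocols. FastQC, Bowtie2, MACS2, SAMtools and mm10 are named without roles, per the submitters' processing notes; the counter is not given in the sources used here. The RNA immunoprecipitation named in the design was not analysed here.

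limma 3.58.1 (R 4.3.3) with its trend option was fitted to log2(value + 1), in which the added 1 understates changes of low genes. The fit took 22575 genes with at least 1 normalized count in at least 2 libraries. It had 4 groups, no block and 4 residual degrees of freedom. Benjamini-Hochberg adjustment ran over all tested genes at 0.05. On recovered reads edgeR 4.0.16 called 4840 genes for the medium response of GFP cells, 159 for that of THOC5 cells, 5419 for THOC5 against GFP in osteogenic medium and 1 in growth medium; DESeq2 1.42.0 was also run. Other pseudocounts, filters and scalings and leaving out each library were alternatives. Scripts were tested on simulated counts. Gene positions and exon lengths came from GENCODE M21 on GRCm38, and promoters from RefSeq. Named are all members, Thoc5, up to 3 genes per list with the smallest p among those called, and the nearest profiles over genes with a mean of at least 50 normalized counts; Ccnd1 was named after its values were seen. The members and lists were chosen with earlier results of these data known.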

Additional observations from a re-analysis of the deposited data

Results flagged for a closer look

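For 6 genes the response to osteogenic medium in THOC5 cells differed from that in GFP cells by the interaction test (limma, adjusted p under 0.05). The difference of the 2 responses, on the log2 scale, was 1.26 for Il6st, 1.05 for Osmr, 1.29 for Socs3, 0.65 for Stat3, 0.74 for Il1r1 and 2.31 for Il33. In each case the response was -0.66 or lower in GFP cells and between -0.23 and 0.34 in THOC5 cells.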

How the results depend on the processing

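The 10 genes gave 23 called results over the 5 comparisons, and of 407 alternative values of these, 392 kept the call, 15 lost it and 0 reversed. Of 478 alternative values of the 27 results that did not pass, 11 gained a call and 30 changed sign. Scaling to library totals turned Il6 to 0.12 in the medium response of GFP cells and in THOC5 against GFP in osteogenic medium to -0.0045, Socs3 and Stat3 in the THOC5 response to 0.024 and 0.031, and Osmr and Stat3 in growth medium to -0.0041 and -0.044; TMM factors turned Il6 in the GFP response to 0.000662 and Il1rl1 in growth medium to 0.0040. Il33 in growth medium was 0.018 in edgeR and 0.0081 in DESeq2. Without the filter the calls over all genes were 37 for the medium response of THOC5 cells, 0 in growth medium and 1122 for the interaction, and with only the 4 libraries compared growth medium gave 0; the causes were not tested. With scaling to library totals the share of higher genes among calls was 68.8% in the GFP response, against 49.3% with size factors, 29.0% against 51.4% for THOC5 against GFP in osteogenic medium and 39.1% against 57.5% for the interaction. Leaving out 1 library at a time gave 2250 to 4577 calls over all genes for the GFP response, 14 to 124 for that of THOC5 cells, 2014 to 5079 for THOC5 against GFP in osteogenic medium, 0 to 1 in growth medium and 372 to 1938 for the interaction, where 2 to 8 of the 10 genes passed. The same ranges in the log2 change were -0.15 to 0.10 for Il6 in the GFP response; in that of THOC5 cells -0.095 to 0.078 for Socs3, -0.036 to 0.033 for Stat3, -0.40 to 0.092 for Il11, -0.25 to 0.035 for Osmr, -0.083 to 0.77 for Il33 and -0.087 to 0.31 for Lif; and in growth medium -0.081 to 0.20 for Osmr, -0.47 to 0.38 for Il33, -0.18 to 0.067 for Il6, -0.053 to 0.093 for Stat3 and -0.23 to 0.22 for Il1rl1. The labels do not say that same-numbered libraries share a batch, so the numbers were not taken as pairs. As a check, same-numbered libraries correlated at -0.12 to 0.25 in their deviations from group means, highest between THOC5 growth and GFP growth. The replicate block gave 4723 calls in the GFP response and 4948 for THOC5 against GFP in osteogenic medium. It brought Il1rl1 (limma adjusted p = 0.0112) and Lif (0.0472) past the threshold in the interaction. With 2 libraries a group, small changes were not detectable, and Il11 rests on 4 to 19 reads a library.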
